A study of Homo sapiens with 3 samples.

Results

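The IgLON genes studied here are LSAMP, OPCML, NTM and NEGR1, together with a long non-coding RNA gene ID that overlaps the 5' part of LSAMP on the same strand of chromosome 3. They were followed in the RNA recovered with CSTF2tau from BE(2)-C cells. Members were taken as every listed peak whose name carries 1 of the 5 gene IDs (ENSG00000185565 for LSAMP, ENSG00000239268 for the lncRNA, ENSG00000183715 for OPCML, ENSG00000182667 for NTM and ENSG00000172260 for NEGR1). This gave 2705 of 202310 listed peaks and 4 of 13356 listed gene IDs, because NTM had no listed peak. LSAMP was chosen by its high share of the listed reads and its lean to the 5' end in these same lists, and the other members by family, so those values are given as descriptions. With 1 group of 3 samples and no control library, no test between conditions could be made.

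BE(2)-C is an established, clonal human neuroblastoma line that grew from a bone marrow metastasis. All 3 samples are biological replicates of unmodified (wild-type) cells, irradiated with ultraviolet light and precipitated with the same antibody against CSTF2tau. The method, sCLIP, sequences the RNA fragments that stay crosslinked to a protein after partial digestion. The 3 deposited peak lists held 736059, 108434 and 387784 reads in 105203, 18346 and 78761 peaks for replicates 1, 2 and 3, where the reads of a peak are the last number in its name. No source states that reading of the number. The lists hold only peaks of at least 3 reads that passed the authors' p threshold, so a gene without a listed peak may still have had reads. No input library was used, and more of a transcript in the cell cannot be told apart from more binding to it.

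IgLON proteins are cell adhesion molecules of the nervous system, made of immunoglobulin-like domains and held on the outer membrane by a lipid (GPI) anchor. They bind each other in pairs across and along membranes, and their genes are very long and mostly intron. CSTF2tau is a paralogue of CSTF2. Within the cleavage stimulation complex it contacts the RNA, and it binds U-rich and GU-rich sequence downstream of poly(A) sites in nascent RNA. All positions are hg19.

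Among the family members, LSAMP alone was recovered in every replicate. LSAMP, the limbic system-associated membrane protein, had 10762, 2211 and 5127 reads in replicates 1, 2 and 3, from 1137, 353 and 688 peaks. It ranked 3, 2 and 2 among gene IDs by reads. NEGR1, which takes part in neurite outgrowth, had 16 reads in 4 peaks in replicate 3 and no peak in replicates 1 and 2. OPCML, the opioid-binding protein/cell adhesion molecule-like gene, had 1 peak of 4 reads in replicate 3 and none in the others. NTM, which encodes neurotrimin, had no listed peak in any of the 3 lists.

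With reads listed under both chr3 IDs counted once, the LSAMP region held 1.46% of the reads of replicate 1 (95% exact interval 1.44 to 1.49%), 2.06% of replicate 2 (1.97 to 2.14%) and 1.32% of replicate 3 (1.29 to 1.36%). The replicate totals are sums over all listed peaks, so reads listed under several gene IDs count in them more than once. The mean was 1.61% ± 0.391 (SD, n = 3), and replicate 2 exceeded replicate 3 by 1.56-fold. The intervals of the 3 replicates did not overlap, so the replicates differed by more than counting error. The 4 IgLON genes together had a mean of 1.62% ± 0.389 (SD, n = 3), nearly all of it from LSAMP. LSAMP lies on the minus strand, and 48.7%, 49.6% and 62.9% of all listed reads lay on that strand in replicates 1, 2 and 3. Against minus-strand reads alone, the share was 3.01%, 4.15% and 2.10%, a mean of 3.09% ± 1.02 (SD, n = 3), with replicate 3 again lowest. Of all chr3 minus-strand reads, overlapping peaks counted once, the region took 40.9%, 54.2% and 26.5%.

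The few peaks of the other IgLON genes were close to the limit of the lists. The 4 NEGR1 peaks lay at chr1:72488876-72488949 with 3 reads, chr1:72495407-72495468 with 3, chr1:72611573-72611638 with 4 and chr1:72619750-72619816 with 6 reads, all on the minus strand. They spread over 131 kb, or 0.122 reads per kb of listed span, against 2.34 reads per kb for the LSAMP region in the same replicate. The nearest listed peak of another gene ID, in any replicate, was 833 kb away. The OPCML peak lay at chr11:133319504-133319567 on the minus strand with 4 reads, and the nearest peak of another gene ID was 449 kb away. In replicate 3 the median gene ID had 14 reads, so NEGR1 stood just above it and OPCML below it. These peaks have no replicate check, and OPCML, NTM and NEGR1 could not be compared between their ends.

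LSAMP stood out by its number of positions. Over all 3 replicates its peaks merged into 1673 loci, the highest number among 13356 gene IDs, whose median was 5. Its listed span, from the first to the last peak, ran over 2195 kb (chr3:115521383-117715978) and was also the longest. Among the 32 gene IDs with a listed span of at least 1000 kb, LSAMP had 4.90 reads per kb of span in replicate 1, against a median of 0.0722. Replicate 2 had 1.01 against 0.00369 and replicate 3 had 2.34 against 0.122. LSAMP ranked 2, 1 and 1 among them. No peak on the opposite strand was listed anywhere in the span in any replicate. Gene IDs other than LSAMP and the lncRNA had 11, 4 and 11 peaks there on the same strand, and all but 1 of these, with 4 reads in replicate 1, overlapped an LSAMP peak.

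Reads were spread over many small clusters, not a few strong ones. A cluster is a set of overlapping peaks on the same strand in 1 replicate. The region had 1136, 354 and 688 clusters in replicates 1, 2 and 3, with medians of 7, 5 and 6 reads and highest values of 98, 49 and 47 reads. The 10 strongest clusters held 6.03%, 11.4% and 6.36% of the region's reads. Clusters of 20 reads or more numbered 95, 5 and 20 and held 27.6%, 7.35% and 10.6% of those reads.

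Along the gene the signal was densest toward the 5' end and had the same outline in all replicates. Positions are counted from the 5' end of the region, chr3:117716393. The median read lay at 362 kb in replicate 1, 354 kb in replicate 2 and 397 kb in replicate 3, a mean of 371 ± 22.9 kb (SD, n = 3). The first 900 kb held 89.0%, 92.1% and 85.5% of the reads. Beyond it the density was 0.911, 0.136 and 0.572 reads per kb, against 10.6, 2.28 and 4.87 within it. In bins of 100 kb the highest bin was the one from 300 to 400 kb (chr3:117316394-117416393), with 23.1%, 39.6% and 21.4% of the reads. The first bin (chr3:117616394-117716393) came next, with 16.3%, 18.1% and 16.1%, and the bin between 100 and 200 kb held only 7.13%, 5.33% and 6.67%. Over the 22 bins, Pearson's r was 0.91 between replicates 1 and 2, 0.99 between 1 and 3, and 0.90 between 2 and 3, with Spearman's rho of 0.84, 0.91 and 0.87. These are descriptions over neighbouring bins of 1 gene.

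**Figure D1:**
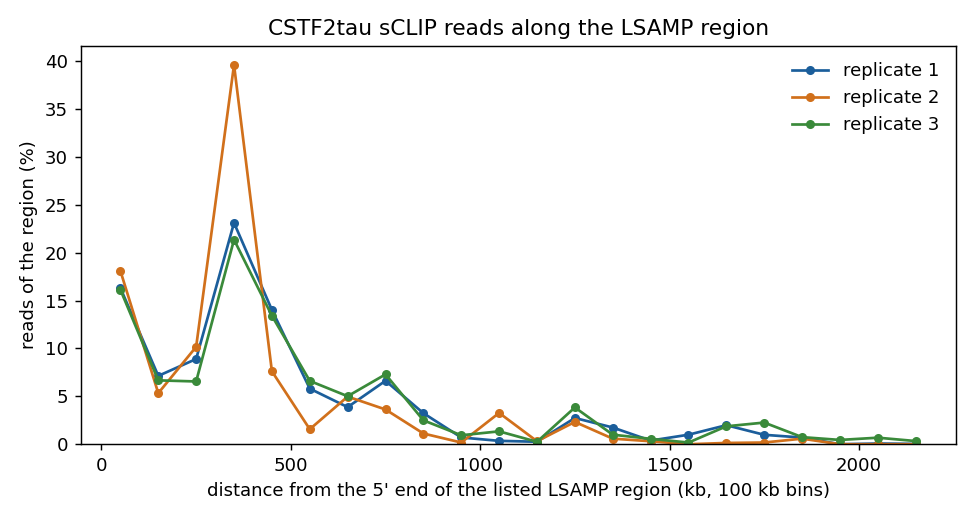
Share of the LSAMP region's reads (y axis, percent) in bins of 100 kb by distance from the 5' end of the region (x axis, kb), with 1 line per replicate. All 3 lines are high in the first bin, fall, reach their maximum between 300 and 400 kb (23.1%, 39.6% and 21.4%) and stay low beyond 900 kb.

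At 10 kb resolution the signal formed successive blocks set apart by sparse or empty stretches. The block limits were set after the profile had been seen, so they carry no test. The first block started with the region. It was followed by a stretch of 25.1 kb without a listed cluster in any replicate, chr3:117458734-117483864, at 233 to 258 kb. Between 210 and 260 kb the replicates had 38, 0 and 29 reads, and between 270 and 320 kb they had 1339, 295 and 480 reads. The first clusters of this second block lay at 258 kb, 269 kb and 263 kb in replicates 1, 2 and 3.

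The third block began near 650 kb. Its first clusters were at 652 kb, 658 kb and 640 kb, and reads went from 65, 23 and 60 between 600 and 650 kb to 352, 88 and 197 between 650 and 700 kb. The 23 reads of replicate 2 were a single cluster that overlapped no cluster of the other replicates. The fourth block followed an empty stretch of 44.4 kb, chr3:116517986-116562353. Reads were 28, 7 and 13 between 1100 and 1200 kb and 295, 52 and 197 between 1200 and 1300 kb. Between 1000 and 1100 kb, which lay in no block, they were 38, 73 and 69. Replicate 2 thus had more reads there than between 1200 and 1300 kb. In replicates 1 and 2 its first clusters were chr3:116517890-116517985 with 8 reads and chr3:116517538-116517584 with 3 reads, both just short of 1200 kb. In replicate 3 a single cluster of 3 reads at 1154 kb came before the rise.

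Within each of the 4 blocks set here, the part nearer the 5' end held most reads in every replicate. Each block was set to end in a sparse or empty stretch, which falls in its 3' part. The fourth block also began in such a stretch. A larger 5' share can thus follow from the limits themselves, and it was not tested with other limits. The SDs below give only the spread of the replicates under the same limits. Clusters beyond 1500 kb were not set as a block and are given below. Cut at its middle, the first block had 2062 against 503, 451 against 72 and 939 against 267 reads in replicates 1, 2 and 3, a mean of 81.5% ± 4.29 in the 5' part (SD, n = 3). The second block had 4219 against 1386, 1192 against 147 and 1723 against 755 reads, a mean of 77.9% ± 10.0. The third had 1118 against 345, 169 against 29 and 583 against 154 reads, a mean of 80.3% ± 4.58. The fourth had 370 against 162, 65 against 10 and 219 against 53 reads, a mean of 78.9% ± 8.67. The highest window of 10 kb was the first one in the first block of each replicate, with 312, 103 and 226 reads. In the second block it lay some way in, with 565 reads at 330 to 340 kb, 170 reads at 360 to 370 kb and 164 reads at 350 to 360 kb. The third block had its highest window at 710, 660 and 680 kb with 140, 53 and 73 reads. In replicate 2, 41 of the 53 reads came from a single cluster that overlapped no cluster of the other replicates. In the fourth the highest windows, of 61, 17 and 43 reads, lay at different distances from its start. The second block was the largest, with 5605, 1339 and 2478 reads. The sources used here hold no hg19 exon or promoter positions, so the block starts were not set against the structure of the gene.

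**Figure D2:**
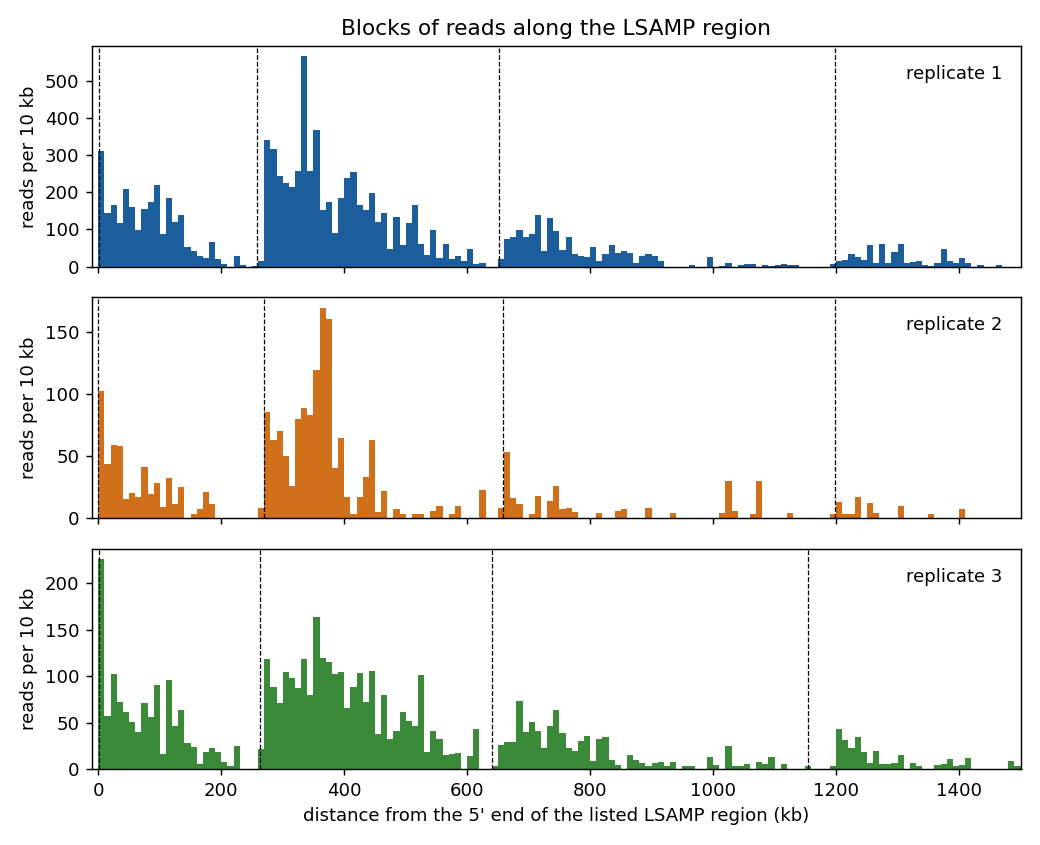
Reads per 10 kb (y axis) against distance from the 5' end of the LSAMP region (x axis, kb, to 1500 kb), with 1 panel per replicate and its own y scale; dashed lines mark the first cluster of each of the 4 blocks. Reads rise from low or zero near 270 kb, 650 kb and 1200 kb in each panel. Replicate 2 also has reads between 1000 and 1100 kb, more than between 1200 and 1300 kb. Within the limits set for each block, the part nearer the 5' end holds most reads. The highest window often lies past the start.

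An empty stretch of 54.2 kb, chr3:116162664-116216870, lay just beyond 1500 kb, and a further run of clusters followed it. Reads were 107, 0 and 9 from 1500 to 1600 kb and 214, 3 and 96 from 1600 to 1700 kb. They were 106, 4 and 116 from 1700 to 1800 kb and 75, 13 and 38 from 1800 to 1900 kb. The highest of these bins thus differed between replicates 1 and 3, and the run was nearly absent from replicate 2. Single clusters in it could be strong. Replicate 1 had a cluster of 52 reads at chr3:115903888-115904075, at 1812 kb, and replicate 3 had 20 reads at chr3:115928877-115929040, at 1787 kb. Neither overlapped a cluster of another replicate. The last 3' clusters were thin, with 4 reads in the bin beyond 2100 kb in replicate 1, 0 in replicate 2 and 17 in replicate 3.

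**Figure D3:**
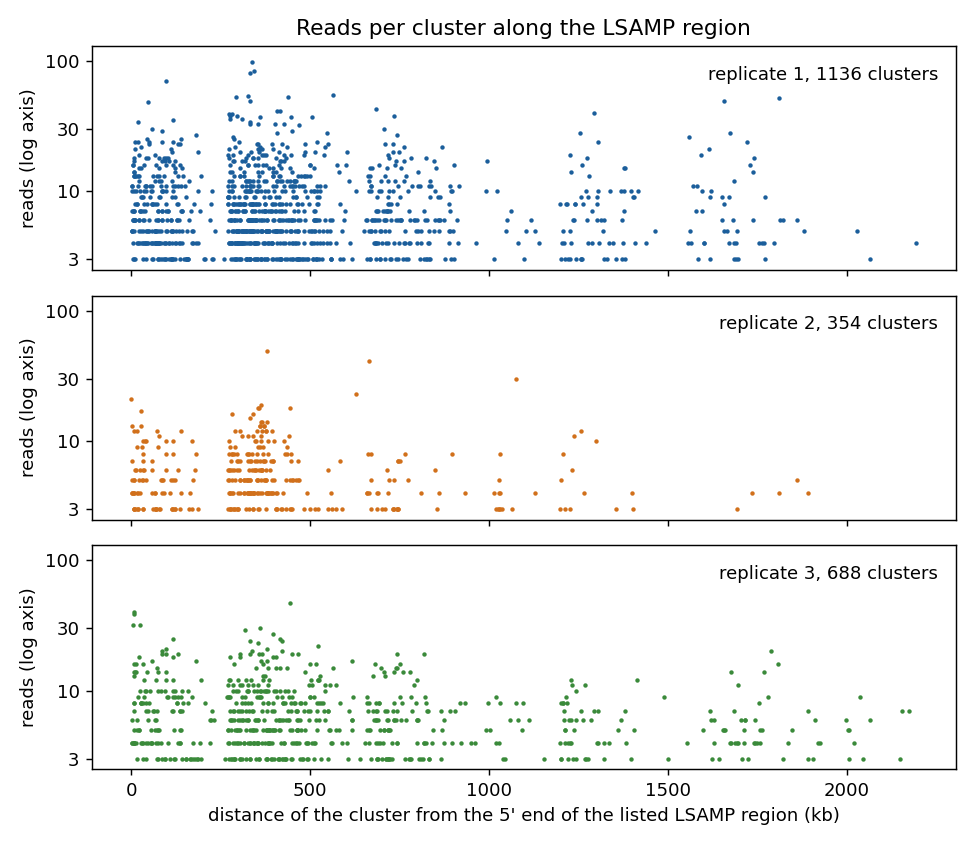
Reads of each cluster (y axis, log scale) against its distance from the 5' end of the LSAMP region (x axis, kb) in replicates 1, 2 and 3 (1136, 354 and 688 clusters). Each point is 1 cluster. Points crowd within the first 900 kb, and the highest values are 98, 49 and 47 reads.

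The first 10% of the listed LSAMP span held 2530 of 10762, 502 of 2211 and 1181 of 5127 reads in the 3 replicates. The shares were 23.5%, 22.7% and 23.0%, a mean of 23.1% ± 0.404 (SD, n = 3). The next 10% of the span held more in each replicate, with 39.4%, 53.4% and 33.8%. The last 10% held 12, 0 and 58 reads. Over the whole table, 900 of 6382 gene IDs tested (14.1%) had more reads in the first than in the last 10% of their span (exact two-sided binomial test on summed reads, Benjamini-Hochberg adjusted p below 0.05, same direction in every replicate with reads). The test takes each read as independent, although reads come in peaks of at least 3, so a single peak can weigh heavily. LSAMP was picked with this lean known, so its call is not given as support. Without replicate 1 the number called was 540 of 4198 (12.9%). When peaks listed under several gene IDs were left out, the first 10% of the LSAMP span kept 7.53%, 12.6% and 0% of the remaining reads, because it lies inside the stretch of the lncRNA ID.

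The lncRNA ID covers the first 325 kb of the region (chr3:117391380-117716393) and had, apart from 1, no listed peak away from those of LSAMP. It had 2542, 400 and 1733 reads in 243, 67 and 212 peaks. LSAMP peaks overlapped 243 of the 243, 66 of the 67 and 212 of the 212. The exception, chr3:117716252-117716393, had 21 reads in replicate 2 and lay 273 nt upstream of the 5'-most LSAMP peak. Region reads in this stretch came to 37.1%, 38.0% and 33.8% of the whole region, a mean of 36.3% ± 2.21 (SD, n = 3). At its own ends the lncRNA ID had 427 reads in the first 10% of its span against 392 in the last 10% for replicate 1. Replicates 2 and 3 had 121 against 56 and 404 against 281. Its span takes in the whole first block and the start of the second.

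The same stretch was listed differently under the 2 IDs in replicates 1 and 2, and almost identically in replicate 3. In replicate 3, 211 of 212 lncRNA peaks had the exact coordinates of an LSAMP peak, while 10 of 243 did in replicate 1 and 0 of 67 in replicate 2. In replicates 1 and 2 the lncRNA version was narrower, with a median of 65 against 90.5 nt and 64 against 88 nt, and nested in the LSAMP peak in 240 of 244 and 66 of 66 overlapping pairs. LSAMP carried more reads than the lncRNA ID in 198 of the 244 pairs and 42 of the 66. Of the LSAMP peaks in the stretch, 183 of 426 in replicate 1 and 77 of 143 in replicate 2 had no lncRNA counterpart. These held at most 13 and 10 reads, with a median of 4 in both, against 10 and 6 for the peaks listed under both. In replicates 1 and 2 the peak edges, the reads and whether a peak was listed thus differed with the gene ID under which a peak was listed. The ID version of LSAMP was 7 in replicate 1 and 6 in replicates 2 and 3. Over all gene IDs in both lists, versions were the same in 53.5% for replicates 1 and 2 and in 100% for replicates 2 and 3.

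**Figure D4:**
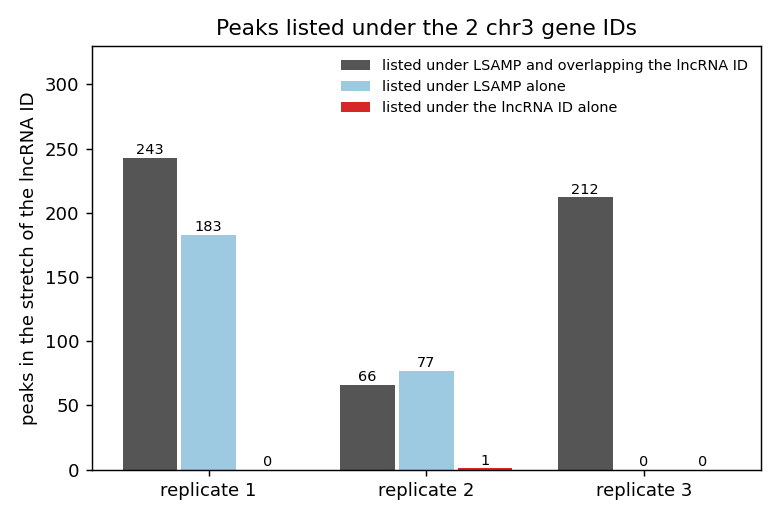
Number of peaks (y axis) in the stretch of the lncRNA ID by replicate (x axis), listed under LSAMP and overlapping the lncRNA ID, under LSAMP alone, or under the lncRNA ID alone. Replicate 3 has no peak under LSAMP alone, against 183 and 77 in replicates 1 and 2.

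At the level of single positions the replicates agreed less than along the gene. Of the 1673 loci, 68 had clusters of every replicate (4.06%), while 285 were found in a pair of replicates and 1320 in a single one. Over all 172167 loci of the lists, 0.889% were found in all 3. All 68 lay within the first 900 kb, and 38 of them between 300 and 500 kb. They held 12.6%, 21.2% and 16.7% of the region's reads.

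The strongest of the 68 by mean share was chr3:117708213-117708623, about 8 kb from the 5' end, with 60, 23 and 84 reads in replicates 1, 2 and 3. That is 0.0170% ± 0.00767 of all listed reads (SD, n = 3), from 6, 4 and 6 neighbouring clusters. The most even of the first 5 was chr3:117383030-117383447, with 88, 15 and 40 reads, or 0.0120%, 0.0138% and 0.0103%. Nearby, chr3:117390616-117390885 had 70, 15 and 18 reads. A locus at chr3:117380057-117380234 had 104 reads in replicate 1, the most of any LSAMP locus in that replicate, but 8 and 5 in the others. The fifth, chr3:117620779-117620915, had 70, 8 and 19 reads. Of these 5 loci, 3 fall in the bin from 300 to 400 kb, in the second block, and the other 2 in the first block. Across loci found in both replicates of a pair, the 68 found in all 3 included, reads were only loosely related. Spearman's rho was 0.12 over the 156 loci of replicates 1 and 2, 0.31 over the 236 of 1 and 3, and 0.11 over the 97 of 2 and 3.

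Clusters of the region were found again more often than clusters of the lists as a whole. Of 1136 clusters in replicate 1, 33.5% shared at least 1 nt with a cluster from either of the other lists (95% exact interval 30.7 to 36.3%), against 15.3% over all clusters. Replicate 2 gave 54.2% (48.9 to 59.5%), with 35.4% over all clusters. Replicate 3 gave 41.6% (37.9 to 45.4%), with 16.9% over all clusters. The region averaged 43.1% ± 10.5 (SD, n = 3) against 22.5% ± 11.2. Without replicate 1, which holds the most clusters, the mean was 22.0%, against 11.6% over all clusters. In the bin from 300 to 400 kb clusters took up 19.8%, 11.7% and 10.5% of the bases, and the part of this coverage in the overlap was not tested. Beyond 900 kb only 11 of 139, 1 of 32 and 10 of 129 clusters were found again.

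Among clusters of like read number the region was higher in the lower classes, and not throughout in the highest. For 3 to 4 reads, 18.2%, 48.1% and 24.4% were found again, against 8.96%, 25.9% and 10.3% over all clusters. For 5 to 9 reads the values were 30.7%, 55.9% and 43.1% against 15.5%, 41.7% and 22.0%. For 10 to 19 reads they were 43.3%, 74.0% and 61.5% against 26.4%, 59.1% and 54.5%, and the replicate 3 interval of the region (52.6 to 69.9%) took in the value over all clusters. For 20 reads or more the region had 61 of 95 in replicate 1 (64.2% against 40.7% over all clusters) and 16 of 20 in replicate 3 (80.0% against 81.7%). In replicate 2 it had 0 of 5, with an exact interval up to 52.2%, against 73.2% over all clusters. These 5 clusters were chr3:117336539-117336627 with 49 reads, chr3:117053210-117053285 with 41, chr3:116640809-116640932 with 30, chr3:117089155-117089232 with 23 and the upstream lncRNA peak with 21 reads. The first of these missed a replicate 3 cluster by 12 nt, and the others lay at least 219 nt from any cluster of replicates 1 and 3. An 81-read cluster of replicate 1, chr3:117385193-117385237, only 45 nt wide, missed a replicate 2 cluster by 4 nt. It directly touched a replicate 1 cluster of 49 reads, chr3:117385238-117385289, which did overlap a replicate 2 cluster. Peaks that touch without overlapping were not joined, so this miss follows from the joining rule.

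**Figure D5:**
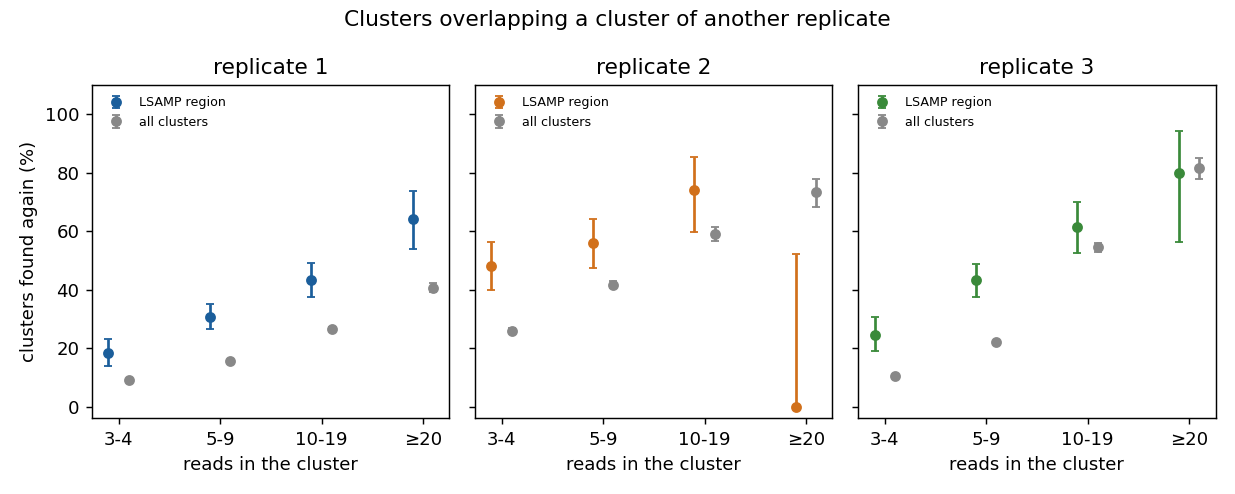
Percent of clusters that overlap a cluster of another replicate (y axis) by the number of reads in the cluster (x axis), for the LSAMP region (coloured) and all clusters of the lists (grey), 1 panel per replicate; bars are 95% exact intervals. The LSAMP region is above all clusters at 3 to 4 and 5 to 9 reads in each panel, and at 0 of 5 in the last class of replicate 2.

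Each listed peak also carries a stretch of at most 4 nt, which in LSAMP lay near the middle of the peak. Its median place was 0.51 of the peak width from the 5' edge in each replicate, much as over all peaks of the lists (0.50, 0.50 and 0.51). Where LSAMP peaks of replicates 1 and 3 overlapped, the stretches were a median of 24.5 nt apart, and 11.4% of 272 were within 4 nt (95% exact interval 7.88 to 15.8%). All peaks of the lists had a median of 24 nt and 11.2% for these replicates. For replicates 1 and 2 LSAMP had 9.19% of 185 against 11.3%, and for replicates 2 and 3 it had 8.0% of 100 (3.52 to 15.2%) against 15.4%.

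Gene IDs with a read profile like that of LSAMP were sought over 10 equal parts of the listed span in each of the 3 replicates, a profile of 30 shares. Among 140 gene IDs with at least 100 reads in every replicate, Pearson's r with LSAMP had a median of 0.08. The most alike were chr1:28832903-28862840 (+) with an r of 0.93, chr6:69345745-70098702 (+) with 0.93, chr5:21767304-22849520 (-) with 0.93, chr8:10886701-11057309 (-) with 0.92 and chr15:66874630-66971381 (+) with 0.85. Their spans ran from 29.9 to 1082 kb, all shorter than that of LSAMP. The profiles come from the same 3 libraries, and the files pair none of these IDs with a name.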

How the data were processed

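The lists were deposited by the authors, 1 per replicate, on hg19 per the submitters' processing notes, which name FastQC, SAMtools, STAR and bedtools. Peak caller and annotation: not given in the sources used here. P-values are the authors' own, as deposited. The last number of the peak name was read as reads because it falls as the p-value rises (Spearman's rho -0.988, -0.973 and -0.964 in replicates 1, 2 and 3). Totals cover reads in listed peaks, not sequencing depth, and exact Clopper-Pearson intervals cover counting error only. Overlapping peaks were joined into clusters per replicate, and clusters into loci over all replicates, with reads taken from the ID with the most. The listed span runs from first to last peak. Gene IDs entered the end test with at least 5 loci and at least 10 reads summed over both ends. The end test was tested on simulated data in which reads were drawn independently, not in peaks as in these lists. Named gene IDs are all members and the 5 with the highest profile r; named loci are the 5 strongest in all replicates. Further clusters, and all blocks and zones, were chosen after the values were seen. Members and lists were chosen with earlier results of these data known. A list of 20 neural adhesion genes was not analysed here, since 0 matched a gene ID. No hg19 sequence was used. Python 3.11.15, pandas 2.3.3, SciPy 1.17.1 and statsmodels 0.14.6 were used.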

Additional observations from a re-analysis of the deposited data

Results flagged for a closer look

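The running numbers in the LSAMP peak names had gaps, a feature that no comparison above used. Of the numbers up to the highest one, 1699 in replicate 1, 818 in replicate 2 and 1374 in replicate 3, no listed peak carried 33.1%, 56.8% and 49.9%. Over all gene IDs the values were 54.4%, 60.2% and 52.6%. For the lncRNA ID they were 29.6%, 48.1% and 44.6%, while the 4 NEGR1 peaks and the OPCML peak had no gap. There is no control library. LSAMP was lower than all gene IDs together in each replicate, and this difference was not tested.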

How the results depend on the processing

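Over the 5 main results, 36 alternative values were computed: 26 stayed within 1 SD of the replicates, or within 1.5 times for counts, and 10 moved. With a replicate left out, the mean LSAMP share, family share or first 10% cannot differ by 1 SD. Those values could only stay within the limit, so they show no stability by this rule. The family values also nearly repeat those of LSAMP. The LSAMP share was 3.09% of minus-strand reads. Left-out replicates gave LSAMP shares of 1.39% to 1.76%, the family 1.39% to 1.76% and the first 10% of the LSAMP span 22.9% to 23.3%. That first 10% held 6.69% without peaks under several gene IDs, and the first 20% held 65.3%. Gene IDs called at the 5' end numbered 900 of 6382 tested (14.1%). They numbered 225 of 1684 (13.4%) with each peak counted as 1, 590 of 4029 (14.6%) when only peaks up to the median p were kept, and 540 to 1051 (12.9% to 17.1%) with a replicate left out. Clusters found again were 31.1% when the overlap had to cover at least 50% of the cluster and 22.0% to 30.7% with a replicate left out, against 11.6% to 15.1% over all clusters. Counting chr3 reads once only at identical coordinates, an alternative chosen after seeing the data, gave an LSAMP share of 1.84%. The end ratio of OPCML, NTM and NEGR1 was not run, for lack of loci. No paired analysis was possible because there is only 1 group. The p threshold and the unknown depth limit what a missing peak of NTM, OPCML or NEGR1 can show.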
